A study of Mus musculus with 5 samples.

Results

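The transcripts described here are those encoded in the mitochondrial genome, taken as every row whose name starts with mt_ in the deposited read tables. There were 37 such rows among 24288 rows over the 5 plates, beside 15597 nuclear genes and 8654 repeats. They comprise 13 mRNA rows, 2 ribosomal RNA (rRNA) rows and 22 transfer RNA (tRNA) rows, and all 37 were matched to the GENCODE M21 annotation of the mouse mitochondrial chromosome. The rows were read in single mouse cells of 3 types. ES R1, an embryonic stem cell line labelled as spheres derived from such cells, was sorted into 3 plates. The other plates were 1 of Neuro2A, which is a neuroblastoma line, and 1 of MEF, fibroblasts of the mouse embryo. MEF and Neuro2A cells were grown in DMEM with serum, antibiotics, Glutamax and mercaptoethanol, and the ES cells were cultured by a published sphere protocol. No genotype, drug or time point distinguishes the groups, and the labels do not tie the 3 ES plates to different cultures, so spread between them may be technical.

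Mammalian mitochondrial DNA is transcribed as long polycistronic precursors from both strands, and most mRNAs and rRNAs are released from them by excision of the tRNAs that lie between. The mRNAs encode core subunits of respiratory complexes I, III and IV and of the ATP synthase (complex V), while the rRNAs and tRNAs serve translation inside the organelle. Most mature mitochondrial mRNAs and, with shorter tails, the rRNAs carry A at the 3′ end, which lets a poly-T primer capture them. Of the 37 rows, 9 are encoded on the minus strand, namely mt_ND6 and 8 tRNAs, in an otherwise plus-strand set.

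Each of the 96 wells of a plate received 1 sorted cell and its own 5-base barcode, carried by the template-switching oligo, before the plate was pooled for PCR. A minimum of 1000 gene reads left 431 of 480 wells, 66 in ES replicate 2 and 86 to 94 in the other plates. ES replicate 2 stood apart, with 2520.5 gene reads in its median kept well against 12749 to 101130 elsewhere, and with 82.8% of its reads on repeats against 22.9% to 40.0%. ES markers such as Pou5f1 had reads for 8 of 8 genes in every ES plate, for 1 of 8 in Neuro2A and for 3 of 8 in MEF. All 8 fibroblast markers were read in MEF, and they were also read in ES replicate 3, at a summed 3799 CPM (TMM-scaled reads relative to the plate's gene and mitochondrial total) against 642 and 1140 in ES replicates 1 and 2 and 36667 in MEF. All 8 neuroblastoma markers were read in Neuro2A and also in MEF, at a summed 1747 and 226 CPM. In ES replicates 1, 2 and 3 the list summed to 77.0, 136 and 101 CPM, with 2, 4 and 7 genes read. Reads of genes typical of a source plate, summed over kept wells, were shared with another plate. ES replicate 3 held a median of 10.8% of the MEF reads over 199 MEF genes. MEF held 9.45% of the Neuro2A reads over 134 Neuro2A genes. Barcodes were not matched in these estimates. All 96 barcodes were used on every plate. Several results were therefore recomputed with these shared reads, called carried-over below, subtracted at matching barcodes, and are given where that moved them. How these reads arose was not tested.

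A few of the sequences are shown first, for rows whose balance is described below. mt_TrnF and mt_Rnr1 lie next to each other at the start of the chromosome, and their balance differed between plates. The first is the whole of mt_TrnF (chrM:1-68), the second the first 60 bases of mt_Rnr1 (chrM:70-129), both from GENCODE M21 transcripts on the plus strand of GRCm38.

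mt_TrnF: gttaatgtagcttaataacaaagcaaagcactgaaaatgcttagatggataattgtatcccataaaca

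mt_Rnr1 start: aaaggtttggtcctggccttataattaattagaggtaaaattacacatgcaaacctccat

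The capture primer in the protocol ends in a run of T, so the longest internal run of A (in capitals) is shown for both rRNAs and for mt_COX1 and mt_CYTB, whose ratio separated the cell types. Positions are chrM:685-729, chrM:1468-1514, chrM:6096-6142 and chrM:14145-14183 in that order.

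mt_Rnr1 A run: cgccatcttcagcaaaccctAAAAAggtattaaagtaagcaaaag

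mt_Rnr2 A run: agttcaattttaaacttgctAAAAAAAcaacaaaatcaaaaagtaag

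mt_COX1 A run: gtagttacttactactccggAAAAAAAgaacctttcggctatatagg

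mt_CYTB A run: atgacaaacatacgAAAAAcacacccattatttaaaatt

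Searched on the strand of each gene, AAAAA occurred in 10 of 13 mRNAs, both rRNAs and 4 of 22 tRNAs. A match describes the letters only, and whether the primer annealed there was not tested.

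ES replicates 1, 2 and 3 gave 1639779, 42056 and 349939 mitochondrial reads, Neuro2A gave 651023 and MEF 486818. As a share of all reads they were 9.28%, 2.37% and 8.45% in the ES plates (6.70% ± 3.77, SD, n = 3), 12.9% in Neuro2A (95% exact binomial interval 12.88% to 12.94%) and 10.98% in MEF (10.95% to 11.01%). All 3 ES plate totals lay below both other plates, and ES replicate 2 was the lowest. A single well of it held 1034708 of its 1775531 reads, and without that well its share was 4.41%. The exact two-sided permutation test over plates gave p = 0.5 against MEF and p = 0.5 against Neuro2A, where the smallest p that 3 plates against 1 allow is 0.25. Intervals here cover counting error only, since the reads carry no molecular identifiers. Without ES replicate 2 the ES mean was 8.87%. The median well gave another order, at 9.04%, 5.65% and 10.32% of all reads in ES, 11.6% in Neuro2A and 9.01% in MEF, so that ES replicates 1 and 3 lay above MEF (exact permutation p = 1).

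The share of repeats moved with this order, so the same reads were set against gene and mitochondrial reads alone. The shares then were 12.5%, 13.8% and 14.1% in the ES plates (13.5% ± 0.822, SD, n = 3), 17.1% in Neuro2A and 14.2% in MEF. ES replicate 3 and MEF now differed by less than the spread between the ES plates, and Neuro2A remained the highest. The exact permutation p was 0.5 against MEF and 0.25 against Neuro2A. The 5 values with carried-over reads subtracted were 12.5%, 13.8%, 13.5%, 17.1% and 13.6% in the same order. MEF then lay within the ES range. Without wells whose barcode ends in G, the ES plates held 12.4%, 14.5% and 16.2% (14.4% ± 1.92, SD, n = 3). Neuro2A held 17.8% and MEF 14.5% on that setting. The exact permutation p against Neuro2A was then 0.5.

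**Figure D1:**
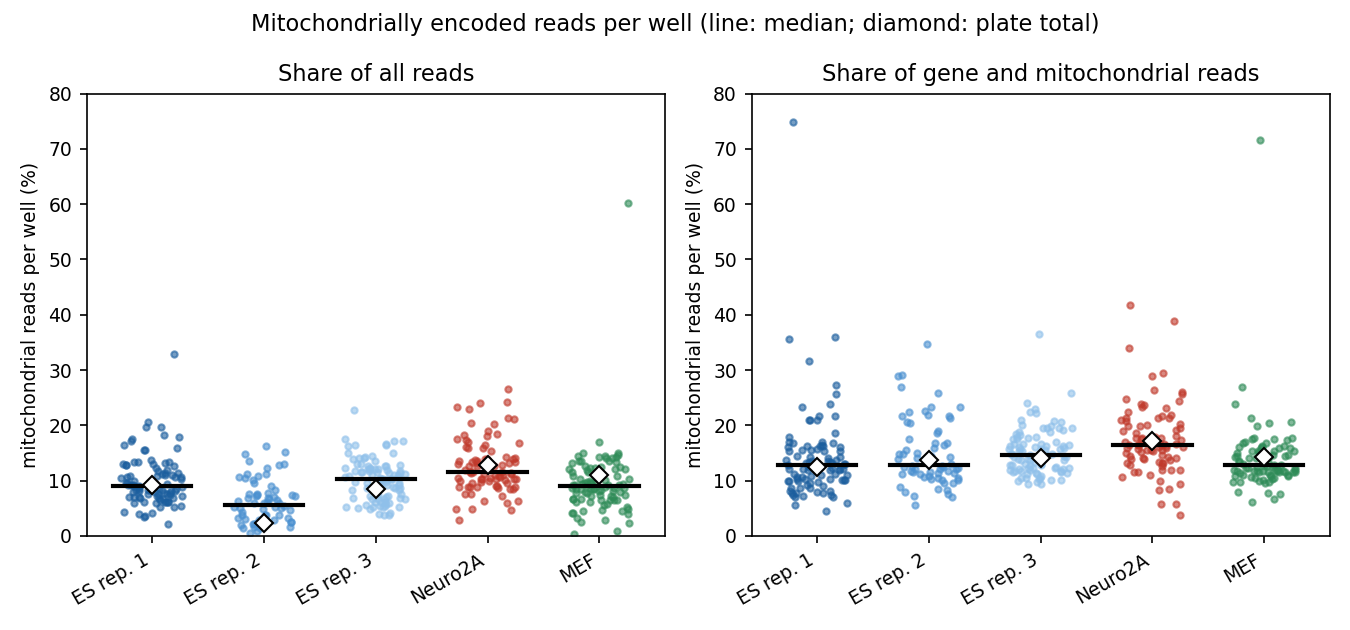
Mitochondrial reads in each of the 431 kept wells, as a percentage of all reads (left) and of gene and mitochondrial reads (right), by plate. Points are wells, lines medians and diamonds plate totals; ES replicate 2 is low only on the left, and the Neuro2A median of 16.5% is the highest on the right.

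Within a plate, single cells differed far more than plate totals did. On the gene and mitochondrial scale the median well held 12.8%, 12.9% and 14.7% in ES (replicates 1 to 3 in order), 16.5% in Neuro2A and 12.8% in MEF. The lowest wells held 3.78% to 9.38% and the highest 34.6% to 74.9%. Extreme wells were few: 4, 1 and 1 ES wells by replicate, 3 Neuro2A wells and 1 MEF well were over 30%. The highest wells of ES replicate 1 (74.9%) and MEF (71.6%) stood far above the next highest in their plates, 36.0% and 26.9%. Both were shallow, with 5292 and 3357 gene reads, and their mitochondrial reads were rich in rRNA, at 65.5% and 83.3%. The highest Neuro2A well (41.7%) had 22.1% rRNA instead, and its leading row was mt_COX2 with 18.2% of mitochondrial reads.

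Depth and barcode moved with the share over wells. In the ES plates shallower wells tended to have higher shares, with Pearson's r against log10 gene reads of -0.31, -0.25 and -0.39 and Spearman's rho of -0.27, -0.25 and -0.39, over 66 to 94 wells that share a plate and its PCR. In Neuro2A and MEF no such tendency showed, with r of -0.09 in both and rho of -0.06 and 0.07. Wells whose barcode ends in G had the lower median in 5 of 5 plates, for example 11.3% against 15.9% in ES replicate 3 and 12.67% against 13.03% in ES replicate 1. Wells with the same barcode on different plates correlated with Spearman's rho of -0.11 to 0.41. The highest values were those of MEF with ES replicate 3 (0.41) and of Neuro2A with MEF (0.40). These are the 2 pairs to which the subtraction above applies. The part of depth, barcode and carry-over in the spread between cells was not tested.

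The balance among the rows was dominated by 14 of them, each with at least 1% of mitochondrial reads in some plate. These 14, both rRNAs and all mRNAs but mt_ND6, held 99.4% to 99.97% of mitochondrial reads in the 5 plates. The 2 rRNAs alone took 33.6%, 43.4% and 35.3% in the ES plates (37.4% ± 5.28, SD, n = 3), 44.7% in Neuro2A and 48.1% in MEF. All ES plates lay below both, and ES replicate 2 was the nearest to Neuro2A. Without wells whose barcode ends in G, ES replicate 2 (43.5%) lay above Neuro2A (43.2%). The exact permutation p was 0.25 against MEF and 0.5 against Neuro2A, the latter 0.75 without those wells.

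mt_Rnr2, the large-subunit rRNA, was the leading row of every plate, with 27.96%, 34.95% and 23.88% of mitochondrial reads in ES, 31.9% in Neuro2A and 32.2% in MEF. The values of the single plates lay within the ES range. mt_Rnr1, the small-subunit rRNA, held 5.62%, 8.50% and 11.4% in ES, 12.8% in Neuro2A and 15.9% in MEF. All ES plates were below both, but ES replicate 3 was nearer to Neuro2A than to ES replicate 1. Although both rRNAs come from 1 precursor, the reads of mt_Rnr1 per read of mt_Rnr2 were 0.201 and 0.243 in ES replicates 1 and 2, and 0.477, 0.401 and 0.494 in ES replicate 3, Neuro2A and MEF. The ratio thus split the ES plates, and ES replicate 3 remained at 0.473 after carried-over reads were subtracted. In single wells with at least 200 mitochondrial reads, mt_Rnr1 made up a median 15.0%, 19.4% and 32.5% of rRNA reads in ES, 28.6% in Neuro2A and 31.7% in MEF.

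Per kilobase of gene, mt_Rnr2 also ranked first in every plate, with 14.5% to 22.9% of the length-scaled reads of the 14 rows. mt_ATP6 ranked next in ES replicates 1 and 2, at 12.5% and 10.5%, and mt_Rnr1 did so in ES replicate 3, Neuro2A and MEF, at 11.4%, 12.95% and 16.9%. mt_ND5 had the lowest value per kilobase of the 14 rows in all 5 plates, at 0.64% to 1.31%, but ranked 11 to 13 by reads alone. Because the barcode is carried by the template-switching oligo, read number need not grow with gene length. The ranks per kilobase therefore depend on the scaling and are not a measure of abundance.

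**Figure D2:**
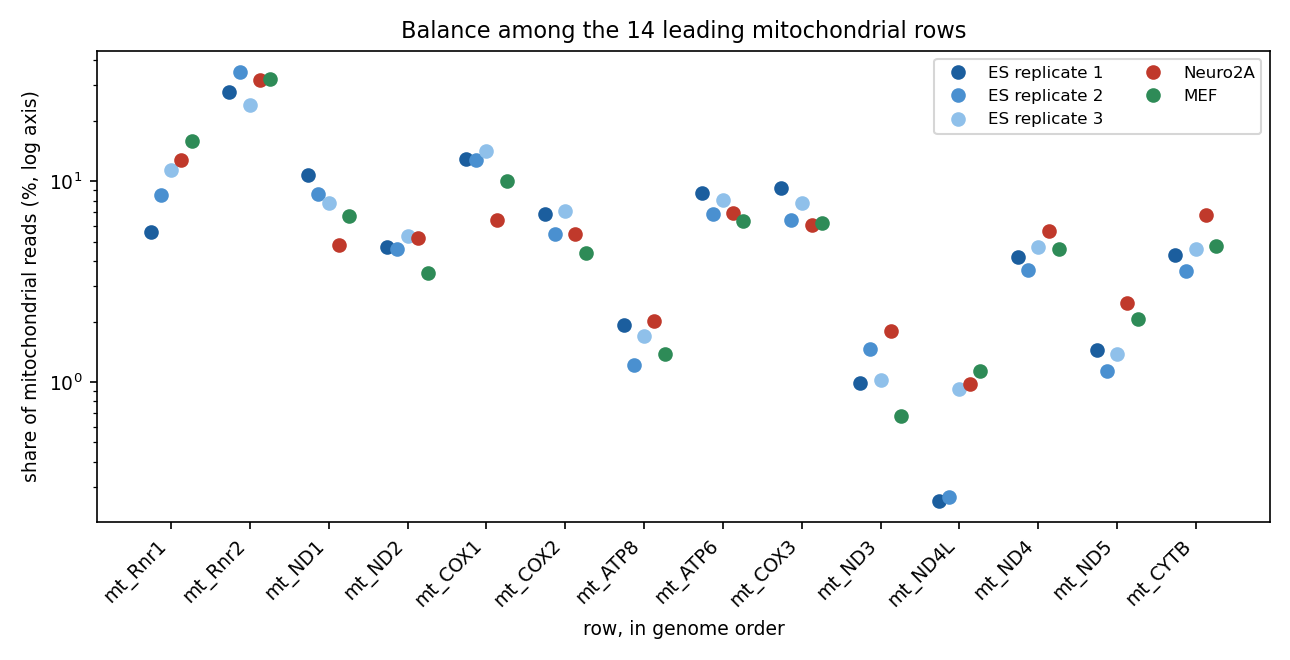
Share of mitochondrial reads (percent, log axis) held by each of the 14 leading rows in each plate, in genome order. Blue points are the 3 ES plates, red Neuro2A and green MEF; mt_COX1 stands highest in the ES plates and lowest in Neuro2A, while mt_ND4L separates ES replicates 1 and 2 from the rest.

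mt_COX1, mt_COX2 and mt_COX3, the catalytic core of cytochrome c oxidase, together took 43.8%, 44.0% and 45.1% of mitochondrial mRNA reads in the ES plates (44.3% ± 0.688, SD, n = 3), 32.9% in Neuro2A and 39.8% in MEF. All 3 ES plates lay above both others, and the gaps exceeded the ES spread. The exact permutation p was 0.25 in each case, the smallest available. This share was added as a result after the data were seen, so its p is a description only. mt_COX1 alone held 12.97%, 12.82% and 14.19% of mitochondrial reads in ES, 6.43% in Neuro2A and 10.04% in MEF.

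mt_CYTB, the only complex III subunit encoded in the organelle, was lower in the ES plates. It held 4.29%, 3.56% and 4.57% of mitochondrial reads in ES, 6.78% in Neuro2A and 4.77% in MEF, and ES replicate 3 nearly reached MEF. As a share of mRNA reads it was 6.46%, 6.35% and 7.08% in ES, 12.4% in Neuro2A and 9.22% in MEF. Reads of mt_COX1 per read of mt_CYTB came to 3.02, 3.60 and 3.10 in ES, 0.949 in Neuro2A and 2.10 in MEF. This ratio within mRNAs did not overlap between the ES plates and either other plate, and a ratio between rows does not say which of them changed.

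Complex I mRNAs encode the membrane arm of NADH dehydrogenase, and together took 33.6%, 35.2% and 32.8% of mRNA reads in ES, 38.3% in Neuro2A and 36.1% in MEF. Individual members ran in both directions. mt_ND1 held 10.7%, 8.62% and 7.79% of mitochondrial reads in the ES plates against 4.80% in Neuro2A and 6.69% in MEF. mt_ND5 held 1.45%, 1.13% and 1.39% against 2.47% and 2.06%. mt_ND1 was thus higher in every ES plate than in both other plates, and mt_ND5 lower. mt_ND4L, which overlaps mt_ND4, was 0.26%, 0.27% and 0.93% of mitochondrial reads in ES, 0.98% in Neuro2A and 1.13% in MEF, and so split the ES plates in the same way as the rRNA ratio. Reads in the overlap of the pair could not be assigned with certainty, because no source used here gives the counting rules. mt_ND2, mt_ND3 and mt_ND4 ranged over 3.48% to 5.34%, 0.68% to 1.80% and 3.62% to 5.62% of mitochondrial reads in the 5 plates.

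mt_ATP6 and mt_ATP8, whose reading frames overlap, took 16.1%, 14.4% and 15.1% of mRNA reads in ES, 16.5% in Neuro2A and 14.9% in MEF. MEF lay within the ES range and Neuro2A just above it.

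**Figure D3:**
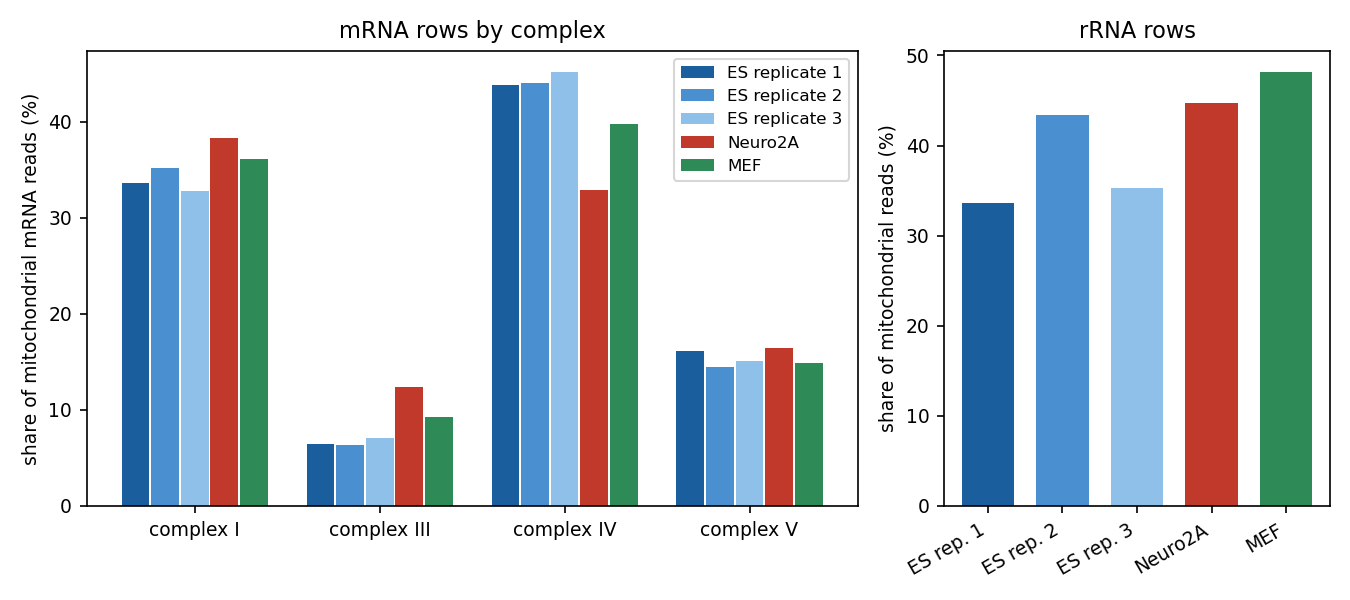
Share of mitochondrial mRNA reads (percent) on rows of complexes I, III, IV and V (left) and share of mitochondrial reads on the rRNA rows (right), 1 bar per plate from 0. Complex IV reaches 43.8% to 45.1% in the ES plates against 32.9% in Neuro2A and 39.8% in MEF, and the order is opposite for complex III.

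The whole profile was compared as the percentage of mitochondrial reads that would have to sit on another row for 2 plates to match. ES plates differed from each other by 9.50% to 12.7%, and from Neuro2A or MEF by 11.6% to 18.8%. Neuro2A and MEF differed by 9.17%, less than any pair of ES plates. These distances include carried-over reads and were not recomputed after subtraction. The subtraction removed 11.1% of the mitochondrial reads of MEF and 15.0% of those of ES replicate 3. Whether the order of the distances would hold without them was not tested.

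Levels relative to gene and mitochondrial reads were compared by edgeR's quasi-likelihood test on reads summed per plate, adjusted over 12302 rows by Benjamini-Hochberg. mt_COX1 stood at 14626, 13313 and 19351 CPM in ES, 11433 in Neuro2A and 21049 in MEF, and mt_Rnr2 at 31518, 36284 and 32556 CPM against 56731 and 67507. mt_CYTB was at 4839, 3698 and 6236 CPM in ES, 12050 in Neuro2A and 10005 in MEF. On this TMM-scaled level mt_Rnr2 and mt_CYTB were lower in each ES plate than in either single plate, while mt_COX1 was intermediate between Neuro2A and MEF. As a plain share of gene and mitochondrial reads, mt_Rnr2 was 4.83% in ES replicate 2 and 4.59% in MEF, so the ES plates no longer lay all below MEF. The log2 fold changes of ES against MEF were -0.42 ± 0.63 (SE) for mt_COX1, -1.01 ± 0.60 for mt_Rnr2 and -1.02 ± 0.62 for mt_CYTB, which became 0.33, -0.23 and -0.28 with library size alone. Against Neuro2A they were 0.46 ± 0.66, -0.76 ± 0.61 and -1.29 ± 0.61.

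Of the 33 mitochondrial rows that passed the filter on low counts, 0 passed edgeR's adjusted threshold of 0.05 in either contrast, where 0% of all rows tested did. Unadjusted, edgeR's test put 1 mitochondrial row under 0.05 against MEF and 2 against Neuro2A, beside 8.35% and 12.3% of all rows. The row in the first contrast was mt_ND5, at -1.46 ± 0.59 (SE) with an edgeR adjusted p of 0.591. It was at 1632, 1173 and 1891 CPM in ES, 4395 in Neuro2A and 4318 in MEF. Its ES plates did not overlap either single plate. DESeq2 called 0 mitochondrial rows against MEF, where it called 3.6% of the rows it gave an adjusted p higher and 0.0621% lower in ES. It called 1 against Neuro2A, mt_TrnF, lower in ES, where 10.6% of such rows were higher and 0.95% lower. Only the ES plates gave residual degrees of freedom, 2 in number, with a biological coefficient of variation of 122%, so Neuro2A and MEF were assumed to vary as ES does.

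By position alone, every ES plate lay below MEF for 18 of the 33 rows (39.8% of all rows tested) and above it for 4 (23.2%). Every ES plate lay below Neuro2A for 22 rows (28.1% of all rows) and above it for 2 (28.8%), mt_COX1 and mt_ND1. Among the 14 leading rows, 12 were below MEF and 11 below Neuro2A under TMM scaling, where 47.8% and 27.5% of 69 nuclear genes at 1000 CPM or more were. With library size alone, an alternative added after seeing the data, 4 of the 14 were below MEF and 7 above it, and 9 and 11 of the 33, beside 28.3% and 31.6% of all rows. Against Neuro2A 10 of the 14 and 20 of the 33 were then below, beside 24.96% of all rows. The 2 contrasts share the ES plates, so these counts are not independent. The filter on low counts also used Neuro2A reads, and rows such as mt_TrnH passed it only through them. With group mean CPM values below the equivalent of 3 reads per library set to that floor, the median log2 ratio of mean CPM over the 33 rows was -0.42 against MEF, beside 0.02 for all rows, and -1.01 against Neuro2A, beside 1.00 for all rows. The direction against MEF depended on scaling: the fitted median was -0.48 (all rows -0.08) with TMM and 0.33 (all rows 0.66) with library size alone. The mitochondrial median thus stayed below that of all rows under both.

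**Figure D4:**
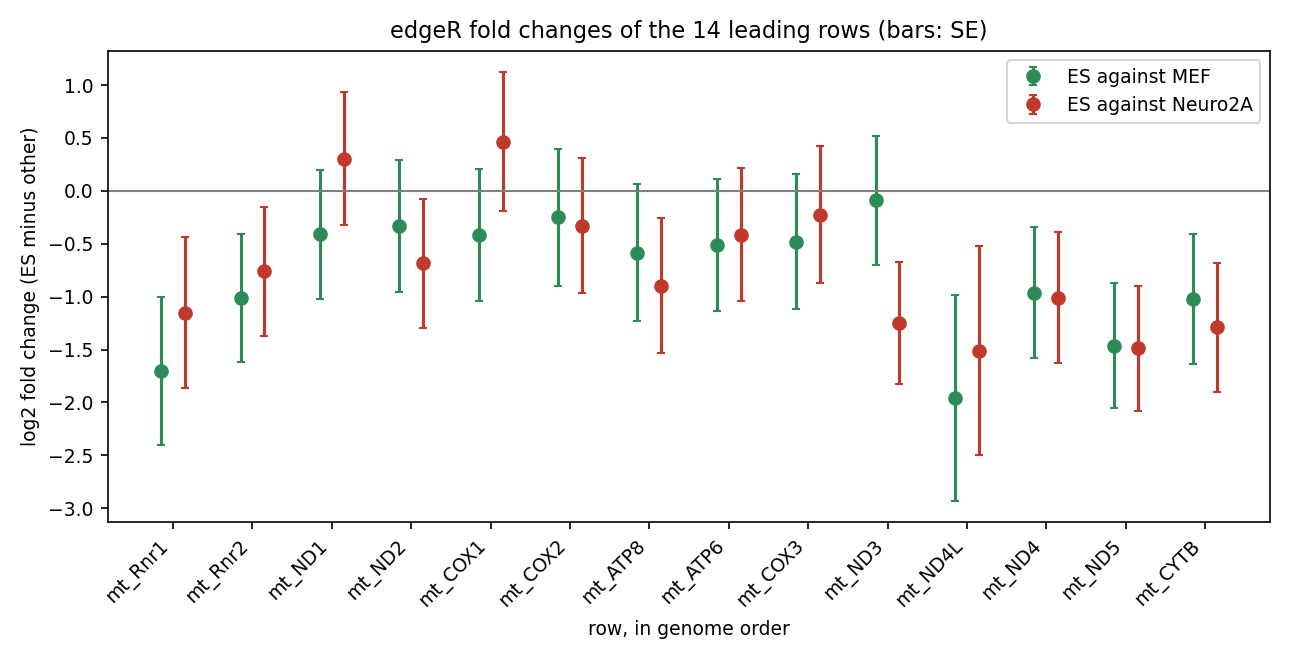
edgeR log2 fold changes (ES minus MEF in green, ES minus Neuro2A in red) of the 14 leading rows in genome order, with SE bars from the fit. Most lie below 0, although 8 rows turn above 0 against MEF with library size alone, mt_COX1 and mt_ND1 lie above 0 against Neuro2A, and no row passed the adjusted threshold.

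The tRNA rows were rare, at 0.0281%, 0.466% and 0.101% of mitochondrial reads in ES (replicates 1 to 3 in order), 0.630% in Neuro2A and 0.122% in MEF. These were 461, 196, 354, 4104 and 593 reads. Neuro2A was the highest, and the ES plates spanned a range that contains MEF. Of the 23 rare rows (22 tRNAs and mt_ND6), 16, 18 and 16 had reads in the kept wells of the ES plates, all 23 in Neuro2A and 16 in MEF, and 11 were read in all 5 plates.

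mt_TrnF, the tRNA for phenylalanine, gave the largest Neuro2A excess among rows with at least 100 CPM there. It had 91, 10 and 53 reads in ES, 1487 in Neuro2A and 135 in MEF, or 6.3, 24.7 and 20.6 CPM, 406 CPM and 58.1 CPM. Every ES plate lay below both single plates. Its log2 fold change in ES against Neuro2A was -4.61 ± 0.93 (SE), with an edgeR p of 0.00271 and an adjusted p of 0.240. DESeq2 gave -4.60 with an adjusted p of 0.0178, and edgeR without ES replicate 1 gave -4.16 with an adjusted p of 0.00288. That last fit called 396 of all 11793 rows tested lower in ES and 955 higher.

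Per 1000 reads of the adjoining mt_Rnr1, shown above, mt_TrnF had 0.988, 2.80 and 1.33 reads in ES, 17.9 in Neuro2A and 1.74 in MEF. Subtracting carried-over reads lowered MEF to 0.600, and leaving out barcodes ending in G lowered ES replicate 2 to 0.375. Neuro2A was the highest in each case. The Neuro2A reads fell in 43 of 86 wells, and 1 well held 31.5% of them. When wells were thinned to 1000 gene and mitochondrial reads, 17.4% of Neuro2A wells kept an mt_TrnF read, against 0%, 1.5% and 1.1% of ES wells and 5.4% of MEF wells. The unthinned shares were 50% in Neuro2A, 7.5%, 13.6% and 12.8% in ES and 26.1% in MEF. Against MEF the log2 fold change of mt_TrnF was -1.80 ± 0.94 (SE), and it was 0.11 once carried-over reads were subtracted, when 42.2 mt_TrnF reads remained in MEF.

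mt_TrnT, the tRNA for threonine beside mt_CYTB, was the next highest tRNA row in Neuro2A and was uneven within ES. It had 8, 55 and 153 reads in ES, 809 in Neuro2A and 117 in MEF, so ES replicates 2 and 3 were above replicate 1 by count although replicate 1 was deepest. Per 1000 mt_CYTB reads this was 0.114, 36.7 and 9.56 in ES, 18.3 in Neuro2A and 5.03 in MEF, and the ES range contained both single plates. In CPM, mt_TrnT stood at 0.55, 136 and 59.6 in ES, 221 in Neuro2A and 50.4 in MEF. On that scale every ES plate lay below Neuro2A, and the ES range contained MEF.

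Neuro2A and MEF, with 1 plate each, were compared by ratio of CPM without a test. Of 18 tested tRNA rows, 17 were at least 2-fold higher in Neuro2A on the CPM + 1 scale. With mt_ND3 that made 18 of 33 mitochondrial rows, beside 26% of all rows tested. Some of these tRNA rows rest on few reads or wells. The highest well held from 7.09% (mt_TrnC) to 82.5% (mt_TrnR) of a row's Neuro2A reads, and mt_TrnK had 13 reads in Neuro2A against 1 in MEF. The filter on low counts used all plates, and mt_TrnK and mt_TrnH passed it only through their Neuro2A reads. mt_TrnH had 38 reads in Neuro2A, 0, 2 and 0 in ES and 2 in MEF. Such rows could hardly come out otherwise. The tRNA rows also share the higher tRNA level of the Neuro2A plate, so they are not separate findings. Subtracting carried-over reads lowered the tRNA reads of MEF from 593 to 381. 1 row, mt_ND6, was at least 2-fold lower, beside 37% of all rows. The 14 leading rows divided into 7 higher and 7 lower, with mt_ND3 highest at a ratio of 2.24 and mt_COX1 lowest at 0.543. That split depended on TMM, since with library size alone every ratio was 1.42 times as high, and 11 rows were higher and 3 lower.

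The minus-strand part of tRNA reads separated the plates along another line. The 8 minus-strand tRNAs took 54.4%, 34.7% and 8.76% of tRNA reads in ES (replicates 1 to 3 in order), 8.92% in Neuro2A and 4.22% in MEF. ES replicates 1 and 2 were high, and ES replicate 3 lay between the other plates. mt_TrnE, for glutamic acid, contributed 140 of 461 tRNA reads in ES replicate 1, 23 of 196 in ES replicate 2 and 8 of 354 in ES replicate 3, against 36 of 4104 in Neuro2A and 2 of 593 in MEF. The 140 reads in ES replicate 1 fell in 13 of 93 wells, and 1 well held 45% of them. mt_ND6, the only minus-strand mRNA, had 1, 6 and 32 reads in ES, 27 in Neuro2A and 88 in MEF, and it overlaps mt_ND5 on the other strand. Per 1000 mt_ND5 reads this was 0.0421, 12.6 and 6.59 in ES, 1.68 in Neuro2A and 8.78 in MEF. ES replicate 1 was thus the lowest for mt_ND6, unlike for the minus-strand tRNAs. No source used here says whether counting used strand, so reads of overlapping genes on opposite strands cannot be told apart.

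**Figure D5:**
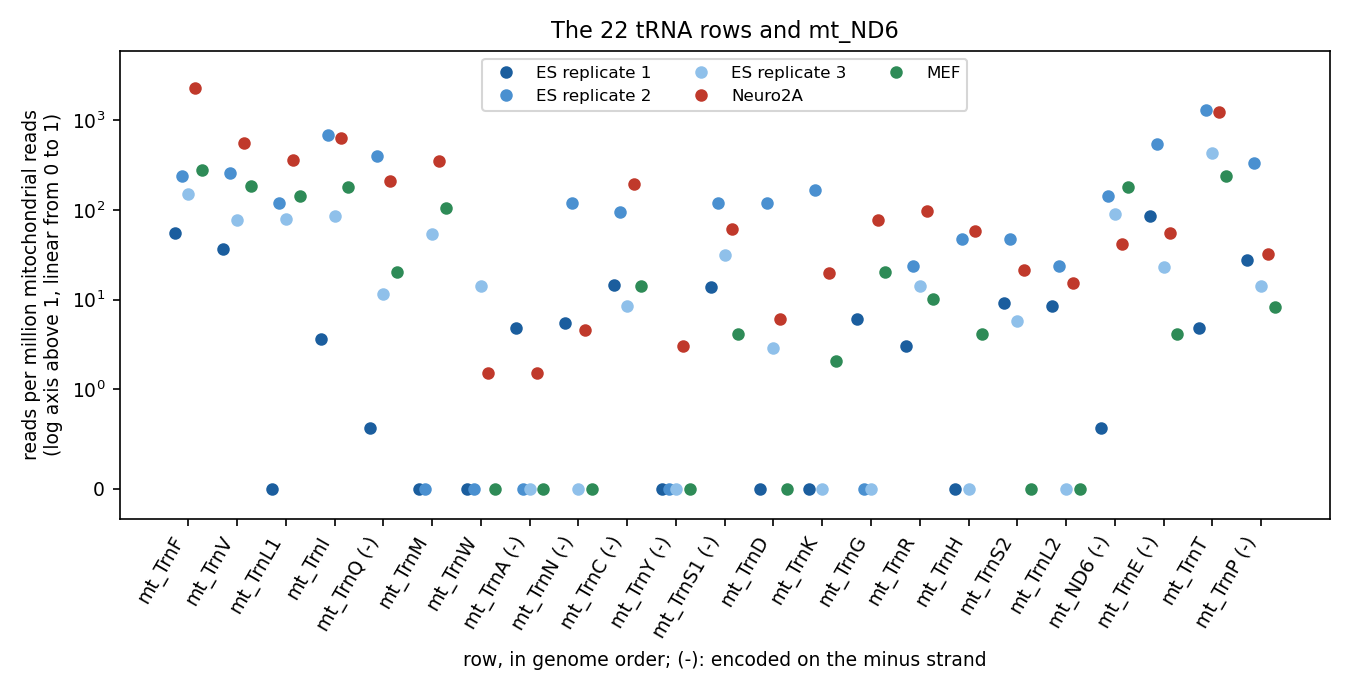
Reads of the 22 tRNA rows and mt_ND6 in each plate, scaled to the plate's mitochondrial total, in genome order, on an axis that is logarithmic above 1 and linear below. Neuro2A (red) is highest for mt_TrnF, and rows at 0 had no read in the kept wells of that plate.

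Rows varied together only weakly over cells. Between pairs of the 14 leading rows, the median Spearman's rho of their shares of gene and mitochondrial reads was 0.19, 0.37 and 0.28 in ES, 0.18 in Neuro2A and 0.15 in MEF, over 58 to 93 wells. The 2 rRNAs were among the closer pairs, at 0.41, 0.55 and 0.64 in ES, 0.44 in Neuro2A and 0.42 in MEF. These wells share a library and its depth, and in sparse counts such values are a description only.

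Nuclear genes that serve the same organelle were set beside these rows. For expression of the mitochondrial genome, 34 of 41 listed genes were tested and edgeR called 0 in either contrast; at an unadjusted p under 0.05 there were 1 against MEF and 3 against Neuro2A (2.94% and 8.82% of those tested, beside 8.35% and 12.3% of all rows). DESeq2 called 0 and 2, both higher in ES, beside 3.6% and 10.6% of all rows with an adjusted p. Tfam, which packages mitochondrial DNA and starts its transcription, stood at 139, 76.5 and 103 CPM in ES, 191 in Neuro2A and 53.8 in MEF. Mterfd1, a member of the transcription termination factor family, stood at 38.5, 71.6 and 36.2 CPM in ES, 269 in Neuro2A and 30.6 in MEF. Both were highest in Neuro2A and lowest in MEF. Pprc1, a coactivator related to PGC-1, differed from them, at 109, 88.9 and 45.6 CPM in ES, 131 in Neuro2A and 141 in MEF. The list's median log2 fold change was 0.87 against MEF (all rows -0.08) and -0.03 against Neuro2A (all rows 0.91).

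Of 81 nuclear oxidative phosphorylation subunits, 80 were tested and edgeR again called 0 in both contrasts, with 7 and 8 at an unadjusted p under 0.05 (8.75% and 10% of those tested) and 1 and 5 called higher in ES by DESeq2. These shares were near or under those of all rows, 8.35% and 12.3% unadjusted and 3.6% and 10.6% by DESeq2. Their medians were -0.45 against MEF and 0.21 against Neuro2A. Cox6c, a nuclear subunit of complex IV, stood at 519, 459 and 999 CPM in ES, 573 in Neuro2A and 1345 in MEF, with a log2 fold change of -1.03 ± 0.69 (SE) against MEF. Atp5b, the catalytic subunit of complex V, stood at 1292, 1091 and 1571 CPM in ES, 1331 in Neuro2A and 1049 in MEF. Its ES range contained Neuro2A, and MEF lay just under it.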

How the data were processed

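The files were deposited as raw hit counts, with 1 column per barcode, as their readme states. The submitters' processing notes name Bowtie; no source used here gives its version, the genome build, the annotation, the treatment of reads with several matches or the use of strand. Nuclear copies of mitochondrial DNA can therefore share reads with these rows. Rows absent from a file were taken as 0.

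Wells needed 1000 gene reads. Counts were summed per plate and fitted, without repeats, by edgeR 4.0.16 (TMM, filterByExpr, group means; R 4.3.3), with DESeq2 1.42.0 as an alternative. The script was tested on simulated data. Shares were compared by exact permutation over plates, and intervals are exact binomial at 95%. Folds of CPM + 1 used a pseudocount of 1. The share of carried-over reads was estimated as a median over genes of the source plate, from reads summed over kept wells. It was subtracted well by well at matching barcodes. Thinning drew 1000 reads per well. Balance over wells used wells with at least 200 mitochondrial reads.

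Rows with at least 1% of mitochondrial reads in any plate are given in full, and at most 5 genes of each nuclear list by mean CPM could be named. The members, lists and tests were chosen with earlier results of these data known. Sequences, lengths and coordinates are from GENCODE M21 (GRCm38). Figures were drawn with matplotlib 3.10.9, and tables made with pandas 2.3.3 and scipy 1.17.1 in python 3.11.15.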

Additional observations from a re-analysis of the deposited data

Results flagged for a closer look

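The 49 wells under 1000 gene reads were left out of every comparison, yet mitochondrial reads were present in them. They made up 29.0%, 15.7% and 16.3% of gene and mitochondrial reads in the left-out wells of ES replicates 1, 2 and 3 (3, 30 and 2 wells), 17.9% in Neuro2A (10 wells) and 13.1% in MEF (4 wells). The kept wells of the same plates held 12.5%, 13.8%, 14.1%, 17.1% and 14.2%. On this scale the share was higher in the left-out wells of every plate but MEF. As a share of all reads it was 6.51%, 4.70%, 7.89%, 9.24% and 3.54% in the left-out wells against 9.28%, 2.37%, 8.45%, 12.9% and 10.98% in the kept wells, and so lower in every plate but ES replicate 2.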

How the results depend on the processing

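No paired analysis was possible because the labels give Neuro2A and MEF 1 plate each and no number shared with the ES plates. The ES mean share of reads was 13.5% without repeats in the total. The complex IV share, a result added with its alternatives after seeing the data, was 43.4% in ES without barcodes ending in G. Mitochondrial rows called against Neuro2A numbered 1 with DESeq2 and 0 to 1 when each ES replicate was left out. The 1 was without ES replicate 1, where 396 of all 11793 rows tested were called lower in ES and 955 higher. The tRNA share in ES minus MEF ranged from -0.0572 to 0.162 percentage points when each ES replicate was left out, turning without ES replicate 2. Of 408 settings of single-row fold changes, 373 kept direction and call, 2 gained a call and 33 turned direction, over 13 results. Against MEF, library size alone gave 0.34 (mt_ND1), 0.42 (mt_ND2), 0.69 (mt_ND3), 0.33 (mt_COX1), 0.49 (mt_COX2), 0.26 (mt_COX3), 0.23 (mt_ATP6) and 0.15 (mt_ATP8). Without barcodes ending in G the same rows gave 0.26, 0.40, 0.56, 0.15, 0.39, 0.11, 0.079 and 0.022. Subtracting carried-over reads gave 0.011 (mt_ND1), 0.22 (mt_ND2), 0.64 (mt_ND3), 0.27 (mt_COX2) and 0.11 (mt_TrnF). mt_ND3 also turned with DESeq2 (0.067), without a filter (0.21), in wells with 5000 gene reads (0.21) and without ES replicate 1 (0.038, in a leave-one-out range of -0.18 to 0.038), and mt_COX2 without a filter (0.026). mt_TrnT gave -0.22 with library sizes of all reads and -0.75 without ES replicate 2 (leave-one-out range -0.75 to 0.95). Against Neuro2A, library sizes of all reads gave -0.0027 (mt_ND1) and -0.53 (mt_ND6), library size alone 0.011 (mt_COX3), and mt_ND6 gave -0.25 and -0.074 without ES replicates 2 and 3 (range -0.25 to 0.89). The causes were not tested. Depth limits the rare rows most: the floor of 3 reads was 7.41 CPM in ES replicate 2 and 0.206 to 1.29 CPM elsewhere.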
